A study of Rattus norvegicus with 2 samples.

Results

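The homeobox genes Dlx5, Dlx6, Msx1, Msx2 and Msx3, were followed through single cells of the rat cochlea on postnatal day 1 (P1) and postnatal day 7 (P7). They were picked by their gene symbols, with earlier results of these data known, so the choice was not blind to the data. Of the 5 symbols, 4 matched a row among the 32623 gene rows; Dlx6 was not analysed here. The rows were Dlx5 (ENSRNOG00000010905), Msx1 (ENSRNOG00000006876), Msx2 (ENSRNOG00000018355) and Msx3 (ENSRNOG00000046776). The study compared cochlear ducts of Sprague-Dawley rats of the 2 ages, with 40 rats in each age group by the study's methods, dissociated and captured with the 10x Genomics 3' kit. Each age was 1 library of pooled tissue, so no test between the ages was possible and every interval below covers counting error only. Within limits on genes, UMIs (unique molecular identifiers, each standing for 1 captured transcript) and mitochondrial share, 12779 of 14068 barcodes were kept at P1 and 12581 of 14501 at P7, with 98005495 and 93080129 UMIs and medians of 6565 and 6878 UMIs per cell. The libraries shared 60 barcode sequences.

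The samples carry the label of greater epithelial ridge cells, the columnar epithelium medial to the inner hair cells. By markers, most cells were of other types. Clusters with mesenchymal markers held 72.3% of the P1 cells and 59.9% of the P7 cells, glial clusters held 15.5% and 30.9%, and the single epithelial cluster, in which the ridge markers stood 5.03 higher (mean log2 ratio to all other cells), held 2.18% and 1.73%. The levels below therefore describe mainly the connective tissue around the epithelium. In pooled cells, more cells of a type and more transcript per cell cannot be told apart unless the cells are divided by type.

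Dlx and Msx proteins are homeodomain transcription factors related to the fly genes Distal-less and muscle segment homeobox. Both families are known from the skull, jaw, teeth and limbs, where bone morphogenetic proteins (BMPs) induce them and where they shape skeletal differentiation, Dlx5 as an activator of bone genes beside Runx2, and Msx1 and Msx2 mostly as repressors. Dlx5 and Dlx6 lie side by side as a pair and pattern the inner ear before birth. Msx3 is best known from the dorsal neural tube of the embryo.

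Only the start regions of the Msx genes could be shown. The RefSeq promoter table (build GRCr8) held 3 of the 5 genes, with none for Dlx5 or Dlx6. In the gene order of the same build Dlx6 and Sdhaf3 flank Dlx5 on chromosome 4, and Msx1 lies next to Cytl1 on chromosome 14. The stretches before the transcription start are printed as description, and whether they bear on the levels in these cells was not tested. They run 5′ to 3′ along the gene, with capitals at exact matches on either strand to the CCAAT box, to the GC box (GGGCGG), to the TATA box (TATAAA) or to the Msx and Dlx core (TAATTG). Msx1 is from chr14:77185702-77185801 on the plus strand and Msx2 from chr17:11102184-11102283 on the plus strand, both from base -100 to base -1. For Msx3, on the minus strand of chromosome 1, the 30 bases from -70 to -41 (chr1:204271657-204271686) and from -40 to -11 (chr1:204271627-204271656) are given.
Msx1: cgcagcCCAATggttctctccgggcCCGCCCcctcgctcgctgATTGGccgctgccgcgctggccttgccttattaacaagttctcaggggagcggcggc
Msx2: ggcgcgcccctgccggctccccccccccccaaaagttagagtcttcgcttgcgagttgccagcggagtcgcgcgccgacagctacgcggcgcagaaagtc
Msx3, -70 to -41: aaacaaccATTGGgtagcggtgcatgaaag
Msx3, -40 to -11: cagtgccaccttTTTATAgggtgcggagga

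The 300-base windows of the table (250 bases before to 50 after the start) differed in composition. GC content was 73.0% for Msx1, 65.3% for Msx2 and 58.0% for Msx3, against a median of 51.7% over all 33469 windows. TATAAA matched once in the Msx3 window, on the opposite strand, and not in the windows of Msx1 and Msx2. It was present in 14.2% of all windows. CCAAT matched 2, 3 and 1 times in Msx1, Msx2 and Msx3 and in 37.5% of all windows, and GGGCGG matched 1, 1 and 2 times and in 33.1% of all. TAATTG, a core bound by Msx and Dlx proteins, was in 8.2% of windows and in none of these 3. The Msx3 window begins at a start that lies 265 bases inside the outermost limit of its gene model, so its upstream part overlaps a longer transcript model.

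Of the 4 genes, Dlx5 and Msx3 stood far higher in the P7 library. Dlx5 gave 141 UMIs at P1 and 3084 at P7, or 1.44 and 33.1 CPM (the gene's share of all UMIs of the same cells, in ppm), a log2 ratio of 4.53 (4.28 to 4.78, exact 95% interval from the counts) and a fold of 23.0. Msx3 gave 96 and 1483 UMIs, or 0.980 and 15.9 CPM, a log2 ratio of 4.02 (3.73 to 4.34) and a fold of 16.3. By this ratio Dlx5 ranked 15 and Msx3 ranked 27 of the 15616 genes that reached 20 UMIs in either library. At least 2-fold higher at P7 were 11.7% of those genes, and at least 10-fold higher were 0.391%.

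Msx1 and Msx2 were rare at both ages. Msx1 gave 27 UMIs at P1 and 40 at P7 (0.275 and 0.430 CPM, log2 ratio 0.64, -0.10 to 1.40), so a difference was not detectable at this depth. Msx2 gave 24 and 39 UMIs (0.245 and 0.419 CPM), with a log2 ratio of 0.77 whose interval ran from 0.0049 to 1.57. Both intervals lay wholly below those of Dlx5 and Msx3. The median of 6888 well-measured genes was 0.11 higher at P7 on the log2 scale, beside which the ratios of Msx1 and Msx2 should be read.

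**Figure D1:**
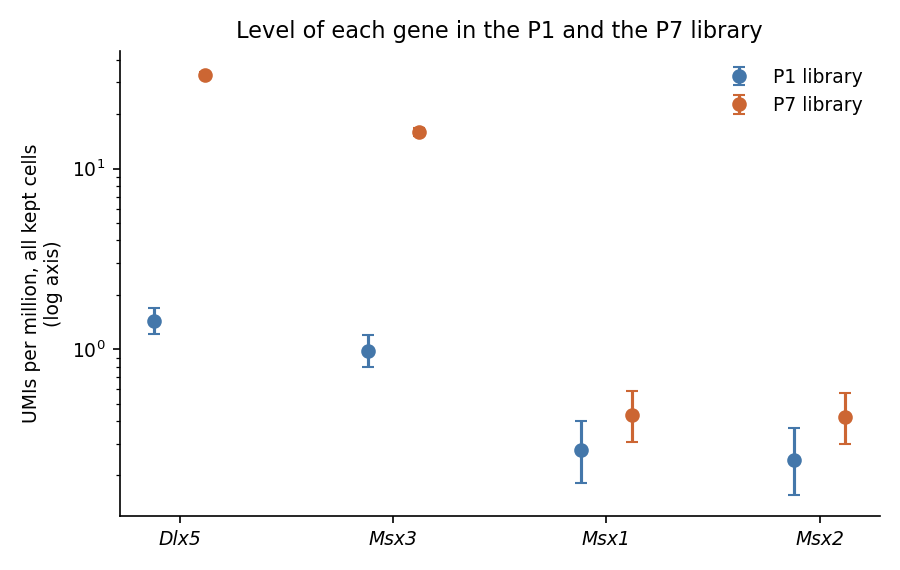
Level of each gene over all kept cells in CPM (log axis), with exact 95% counting intervals, in the P1 (blue) and the P7 (orange) library. Dlx5 went from 1.44 to 33.1 and Msx3 from 0.980 to 15.9, while Msx1 and Msx2 reached 0.430 and 0.419 at P7.

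The other Dlx genes with a row followed another pattern. Dlx1, a homeobox gene known from forebrain interneurons, gave 831 UMIs at P1 and 1258 at P7 (log2 ratio 0.67), and Dlx2 gave 40 and 57. At P1 the glial clusters C6 and C11 held 53.9% and 21.4% of the Dlx1 UMIs, and at P7 the glial clusters C0 and C11 held 54.9% and 23.4%. Dlx3 gave 1 and 2 UMIs and Dlx4 gave 0 in both libraries, where 3 UMIs would be 0.0306 CPM at P1 and 0.0322 CPM at P7. Of these 4 genes, 2 had enough UMIs to be compared and neither was 2-fold higher at P7.

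The genes around Dlx5 did not show its ratio. Of the locus list (Sem1, Dync1i1, Slc25a13, Sdhaf3, Tac1 and Asns, all with enough UMIs), 1 of 6 was at least 2-fold higher at P7, near the 11.7% of all genes. That one was Sdhaf3, with 30 UMIs at P1 and 66 at P7. The list's median log2 ratio was 0.07, beside 0.04 over all genes tested. Sem1, a proteasome subunit gene and the most abundant of them, had a log2 ratio of 0.19, and Tac1, the substance P precursor, 0.05.

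The BMP pathway acts upstream of Dlx and Msx genes elsewhere. Beside 11.7% of all genes at least 2-fold higher at P7, 2 of 8 BMP ligands with enough UMIs were, Gdf10 (27.2 to 54.7 CPM) and the rare Gdf6 (5 to 103 UMIs), and 1 was at least 2-fold lower, Bmp6 (38 to 15 UMIs), beside 13.5% of all genes lower. Of 8 receptors and Smads none was higher and 2 were lower, Smad5 (34.03 to 15.48 CPM) and the rare Bmpr1b. Of 8 antagonists Sostdc1 (29.9 to 183 CPM) and Chrd were at least 2-fold higher, and of 6 targets Bambi was higher (41.7 to 154 CPM) while Id3 had a log2 ratio of 0.24. Among 10 skeletal and craniofacial regulators none was at least 2-fold lower, and Runx2 was higher by 1.52 on the log2 scale. Of 10 regulators of otic mesenchyme 1 was higher, the rare Tbx3, and Pou3f4, the most abundant, had a log2 ratio of -0.47. Of 7 osteoblast genes 4 were higher and 1 lower.

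Most Dlx5 and Msx3 transcripts lay in mesenchymal clusters at both ages. These clusters held 91.5% of Dlx5 UMIs at P1 (85.6 to 95.5%) and 91.4% at P7 (90.4 to 92.4%), while they held 71.1% and 62.9% of all UMIs. For Msx3 the shares were 97.9% (92.7 to 99.7%) and 91.2% (89.6 to 92.6%). For Msx2 they were 75.0% at P1 (53.3 to 90.2%) and 59.0% at P7 (42.1 to 74.4%), and for Msx1 44.4% (25.5 to 64.7%) and 32.5% (18.6 to 49.1%). Msx1 was thus the only one of the 4 with a share below that of all UMIs in both libraries, by intervals that did not reach 71.1% and 62.9%.

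Among clusters of at least 50 cells, endothelium had the highest Msx1 level in both libraries. In that cluster, named by Plvap, Cdh5, Kdr, Emcn, Flt1 and Egfl7, 4 UMIs in 166 cells gave 2.19 CPM at P1 (0.597 to 5.61) and 12 UMIs in 188 cells gave 7.28 CPM at P7 (3.76 to 12.7). At P7 10 of those cells, 5.32%, had an Msx1 UMI, against 0 of 178 macrophages, which allows a share of up to 1.69%, at median depths of 6990 and 6968.5 UMIs. Its neighbours in order did not differ from it beyond counting error. They were epithelium at P1 (1.70 CPM, 4 UMIs) and, at P7, the erythroid cluster C18 (2.77 CPM, from 1 UMI) and pericytes of C13 (2.53 CPM, 0.688 to 6.47, 4 UMIs). Mesenchymal cells gave 0.172 CPM at P1 and 0.222 CPM at P7. Msx2 had no UMI in endothelium or in macrophages at either age, and no cluster with more than 10 UMIs. Its largest counts were 9 in mesenchymal cluster C1 at P1, and 10 each in mesenchymal cluster C12 and glial cluster C0 at P7.

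At P1 Dlx5 was low in every cell type, and the largest part of its UMIs lay in one mesenchymal cluster. Cluster C1, led by Plagl1, Penk and Col1a1 and by the Gpc3-Dcn marker list, held 53.9% of the UMIs and stood at 4.30 CPM (3.38 to 5.38), with a UMI in 61 of 2414 cells. Dividing mesenchymal cells (C10) followed at 3.08 CPM (1.95 to 4.62), which did not differ from C1 beyond counting error. Of the other mesenchymal clusters C2 had 1.34 CPM (0.818 to 2.07), below the C1 interval, C8 had 0.772 CPM and C3 0.154 CPM. Macrophages (189 cells), endothelium (166) and neurons (289) had no Dlx5 UMI, which allows shares of up to 1.59%, 1.81% and 1.04%.

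At P7 Dlx5 was concentrated in 2 mesenchymal clusters, C5 and C7, which held 18 and 16 of the P1 cells. C7, led by Asb9, Pmch, Maob, Wif1 and Notum, stood at 122 CPM (115 to 129) from 1126 UMIs. C5, led by Sfrp4, Phex, Clec11a, Gdf10 and Myoc, stood at 104 CPM (98.1 to 109) from 1340 UMIs. Their intervals did not overlap, but as shares of cells they were reversed in order and close, with 28.7% of C7 cells (26.4 to 31.2%) and 31.2% of C5 cells (29.0 to 33.4%) carrying a UMI. Together C5 and C7 made up 24.8% of the P7 cells and 80.0% of the Dlx5 UMIs. The few P7 cells that fell in clusters of mainly P1 cells were also high, at 209.5 CPM (136 to 309) in the 25 of C1, from 25 UMIs in 4 cells, and at 202 CPM (128 to 303) in the 30 of C2, from 23 UMIs in 9 cells.

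Among clusters of at least 50 cells, below them came a middle group whose Dlx5 intervals did not reach those of C5 and C7. Dividing mesenchyme (C10) had 23.1 CPM (18.7 to 28.3), pericytes of C13 18.3 CPM (12.3 to 26.3), the Gcg-Otos mesenchyme of C12 11.8 CPM (9.60 to 14.4) and epithelium 11.5 CPM (7.10 to 17.5). Glial cluster C15 had 28.1 CPM and erythroid cluster C18 27.7 CPM. Scrublet called 86.6% and 57.2% of their cells doublets, counted over P1 and P7 cells together. The transcripts of C15, with 436 of its 486 cells from P7, cannot be placed in a single cell type. For C18 the doublet share of the P7 cells alone is not given. These 154 cells were shallow (median 1126.5 UMIs) and gave 10 Dlx5 UMIs, so no cell type is read from them. The remaining glia at P7, without C15, had 1.93 CPM from 41 UMIs in 3450 cells. In C13, 1 cell alone held 10 of the 29 UMIs. In C12 the 97 UMIs lay in 29 cells, 9 of which had at least 5. As shares of cells, C12 (3.40%, 2.29 to 4.85%), epithelium (4.59%, 2.22 to 8.27%) and C13 (7.42%, 4.53 to 11.3%) overlapped the macrophage interval given next.

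The lowest group had shares like those of blood and vessel cells. Macrophages had a Dlx5 UMI in 2.81% of cells (0.918 to 6.43%) and endothelium in 3.19% (1.18 to 6.82%), at 5.01 and 4.85 CPM. Mesenchymal clusters C4 (Col15a1, Lepr, Dcn; 2.52% of cells, 4.93 CPM), C9 (Tnfaip6, Gpr182; 1.72%, 4.76 CPM) and C21 (2.46%, 4.72 CPM), and the 94 P7 cells of C8 (2.13%, 2.73 CPM), were at or below these shares, so no expression is read from them. In C9 the 41 UMIs lay in 18 cells, 1 of which had 11, and in C4 1 cell had 7. The share of free RNA was not measured. Glial cluster C0 was lower still, with a UMI in 0.821% of 2801 cells. By their shares, these 4 mesenchymal clusters could thus not be separated from macrophages at P7, and neither could C12 of the middle group (3.40%, 2.29 to 4.85%).

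Among clusters of the merged libraries, Msx3 was highest in other mesenchymal clusters than Dlx5. At P1 the highest level among clusters of at least 50 cells was 4.52 CPM (3.24 to 6.13) in C8, led by Isyna1, Gria2 and Coch, where 41 of 1230 cells carried exactly 1 UMI each. C2 (Edil3, Crym, Col9a3) followed at 2.21 CPM, with an interval below that of C8, and dividing mesenchyme at 1.34 CPM. Of the 16 clusters with at least 50 cells at P1, 9 had no Msx3 UMI. C1, where Dlx5 was highest, had 1 Msx3 UMI in 2414 cells.

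At P7 most Msx3 lay in C12, a cluster whose 11 P1 cells had 43.9 CPM (14.2 to 102) from 5 UMIs in 2 cells. C12, led by Gcg, Otos, Car3, Cytl1 and Cnmd, stood at 134 CPM (126 to 142) and held 73.8% of the Msx3 UMIs in 853 cells, of which 482 or 56.5% (53.1 to 59.9%) carried at least 1. The 94 P7 cells of C8 had 69.6 CPM (51.8 to 91.5), with a UMI in 30.9% of cells. C8 and C12 together were 7.53% of the P7 cells and held 77.3% of the Msx3 UMIs but 3.21% of the Dlx5 UMIs. Conversely C5 and C7 held 9.31% of the Msx3 UMIs.

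Among the other P7 clusters some mesenchymal and glial ones held Msx3 UMIs at a low level. Their levels are set beside macrophages, and no expression is read where the 2 did not differ. C7 had 10.7 CPM (8.72 to 13.1), dividing mesenchyme 6.22 CPM (4.02 to 9.18) and dividing glia of C11 4.08 CPM (2.64 to 6.03), while C5 had 3.01 CPM. Macrophages had 2.86 CPM (0.780 to 7.33), so C5, C10 and C11, but not C7, did not differ from them beyond counting error. As a share of cells C7 (3.29%) also overlapped macrophages (1.12%, from 2 cells). Doublet-rich C15 had 16.5 CPM. Pericytes of C13 had 0 Msx3 UMIs in 256 cells although the same cells gave 29 of Dlx5, and C0 glia had 8 UMIs in 2801 cells (0.533 CPM).

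**Figure D2:**
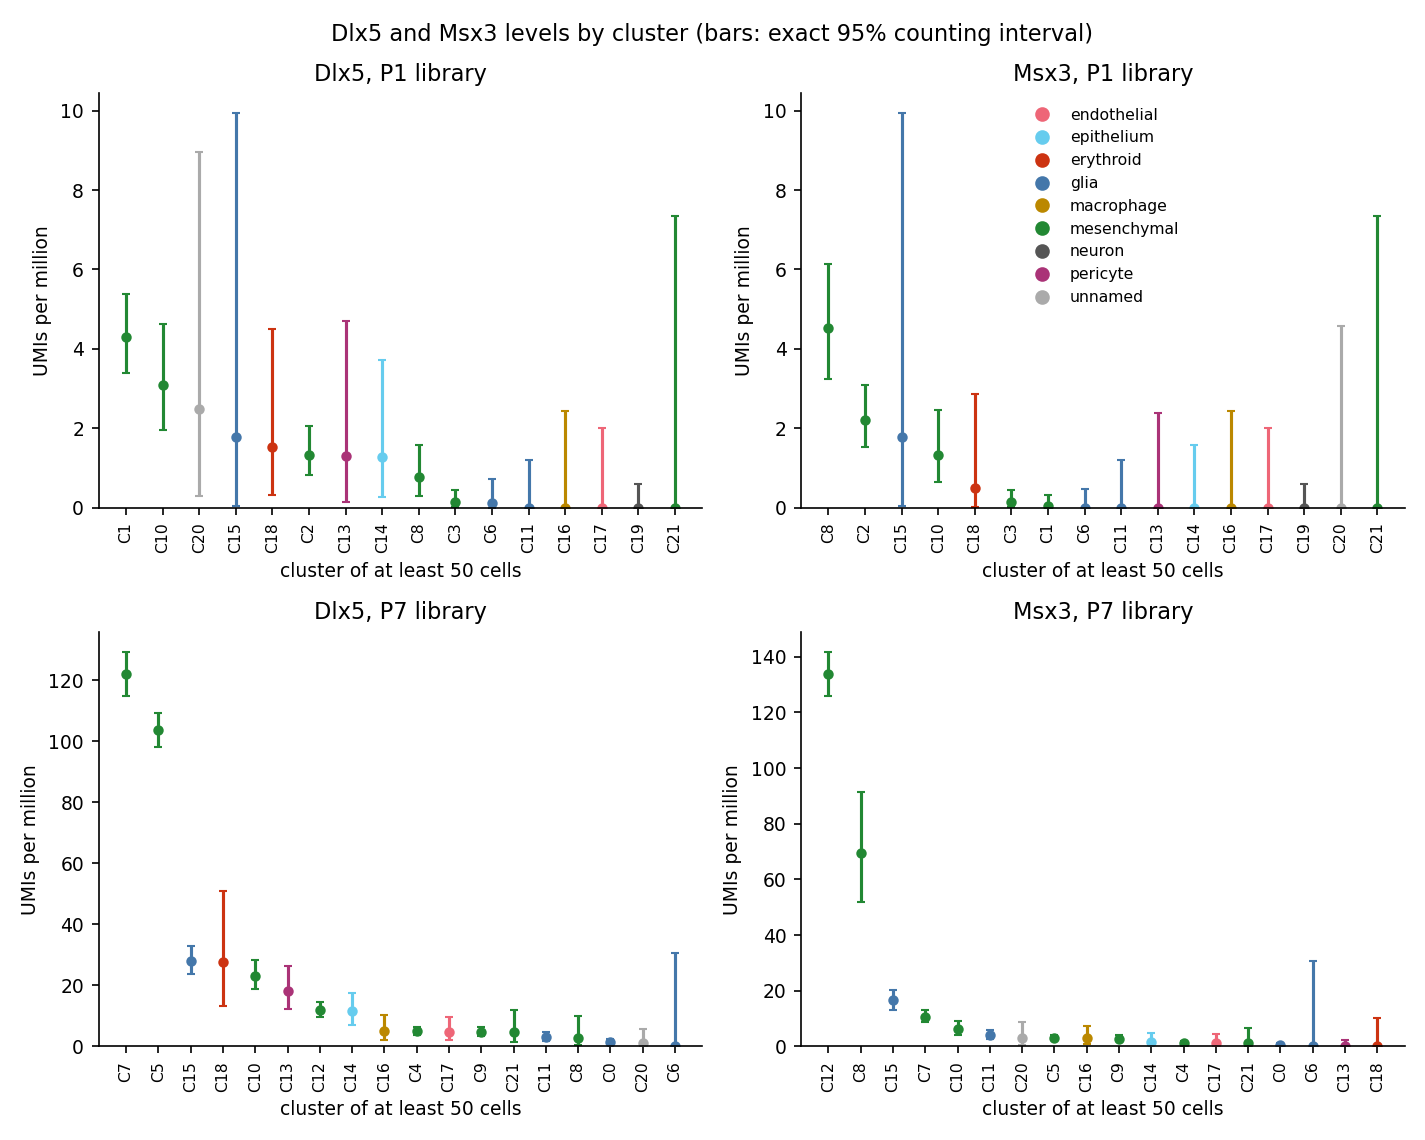
Dlx5 (left) and Msx3 (right) in CPM in each cluster of at least 50 cells, sorted by level, at P1 (top) and P7 (bottom), coloured by cell type; bars are exact 95% counting intervals and the vertical scales differ. At P7 the Dlx5 levels of C7 and C5 (122 and 104) and the Msx3 levels of C12 and C8 (134 and 69.6) stand above all other clusters, and these are different clusters.

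Within the clusters that led, the transcripts were not spread evenly over the cells. Had the Dlx5 UMIs of C5 been shared out in proportion to each cell's depth, 52.2% of cells would have carried one, against the 31.2% seen, and in C7 53.3% against 28.7%. Cells with at least 5 Dlx5 UMIs numbered 74 in C5 and 64 in C7, and the maximum was 14 in a single cell. For Msx3 in C12 70.0% were expected and 56.5% seen, with 40 cells with at least 5 UMIs and a maximum of 9. A finer clustering (resolution 1.2) moved the Dlx5 maximum to a cluster of 1720 cells led by Sfrp4, Myoc and Phex with 139 CPM and 37.1% of cells, and left the Msx3 maximum at 134 CPM.

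At one fixed depth the same clusters led. With every cell thinned to 2000 UMIs, a Dlx5 UMI was found in 14.9% of C7 cells (13.0 to 16.9%), 13.8% of C5 cells (12.2 to 15.5%), 1.84% of macrophages and 0.446% of C0 glia. An Msx3 UMI was found in 20.7% of C12 cells and 15.6% of C8 cells (8.32 to 25.6%), against 1.19% in C7 and 0.665% in C5. Over all cells the thinned Dlx5 share was 0.271% at P1 and 4.47% at P7, with 252 and 711 shallower cells left out, and the thinned Msx3 share 0.208% and 2.04%. Without thinning these shares were 0.908% and 9.87% for Dlx5, and 0.696% and 5.596% for Msx3.

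**Figure D3:**
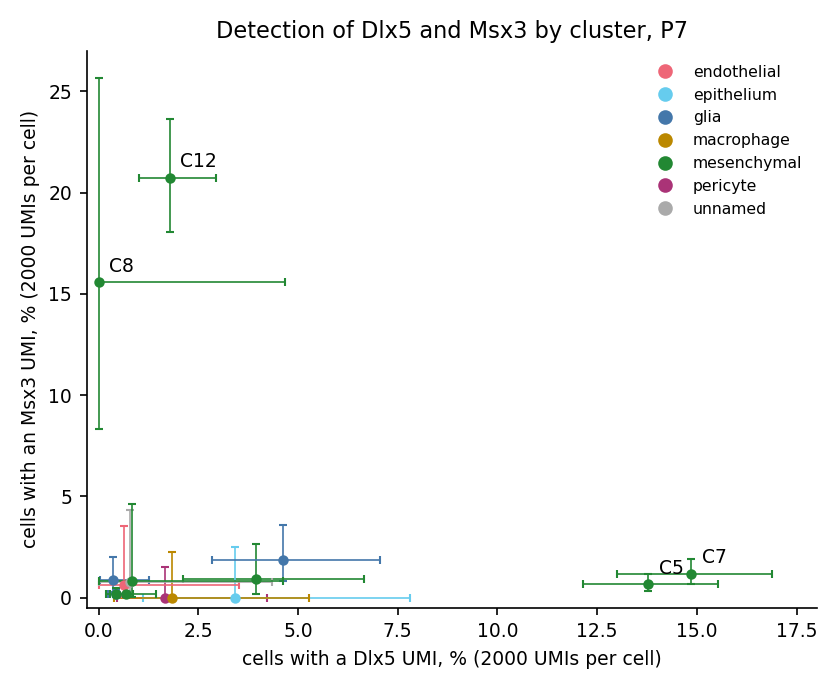
Share of P7 cells with a Dlx5 UMI (horizontal) and with an Msx3 UMI (vertical), in percent, for each cluster with at least 50 cells of 2000 UMIs or more, after thinning to 2000 UMIs; bars are exact 95% binomial intervals. C5 and C7 lie along the Dlx5 axis at 13.8% and 14.9% and C8 and C12 along the Msx3 axis at 15.6% and 20.7%. No cluster of the merged libraries is high in both.

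Since few mesenchymal clusters held cells of both ages, the ages were also compared within clusters of the libraries integrated by canonical correlation analysis. In 4 of these mesenchymal clusters Dlx5 was between 89.2 and 125 CPM at P7. It went from 5.21 to 125 CPM in I2, from 1.14 to 108 in I1, from 0.890 to 91.9 in I4 and from 3.64 to 89.2 in I5, with log2 ratios of 4.59, 6.57, 6.69 and 4.61 and intervals that all lay above 3. In dividing mesenchyme (I9) the ratio was smaller, 3.04 to 23.8 CPM or 2.97 (2.31 to 3.69). I10 went from 0 UMIs in 172 cells to 16.1 CPM, and I6 from 0 in 366 cells to 6.70 CPM, each at least 6.38-fold and 6.18-fold higher against a floor of 3 UMIs in the P1 cells. The P7 level of I6 (5.28 to 8.39 CPM) lay inside the interval of the integrated macrophages at P7 (4.96 CPM, 1.99 to 10.2), which also had 0 UMIs at P1, and that of I3 (5.59 CPM) did too. I8 went from 0.211 CPM (2 UMIs) to 1.51 CPM (4 UMIs), with level intervals that overlapped.

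Msx3 was already highest at P1 in the integrated cluster that led at P7. I10 went from 15.1 CPM in 172 P1 cells (18 UMIs) to 131 CPM in 766 P7 cells, a log2 ratio of 3.12 (2.45 to 3.88). I4 went from 2.54 to 27.01 CPM (3.41, 2.74 to 4.15) and I1 from 2.56 to 12.9 CPM (2.33, 1.32 to 3.25). Both were also among the integrated clusters high in Dlx5 at P7. Of 17 ranked clusters, I4 ranked 2 for Msx3 and 3 for Dlx5, and I1 ranked 4 and 2. In I4, 9.51% of P7 cells had an Msx3 UMI and 23.3% a Dlx5 UMI. The 2 genes were thus less apart by integrated cluster than by merged cluster. In I5 the ratio of 1.30 had an interval from -0.10 to 3.21, so no difference was detectable there. The share of I10 among all cells was 1.35% at P1 and 6.09% at P7.

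The change in cluster sizes and the change within clusters could be put side by side. Makeup here means the share of all UMIs in each cluster. With the P1 level of each integrated cluster kept and the P7 makeup applied, Dlx5 would have been 1.12 CPM, against 1.44 at P1. With P7 levels and the P1 makeup it would have been 47.1 CPM, above the 33.1 seen. For Msx3 the same values were 1.97 CPM and 7.93 CPM, beside 0.980 at P1 and 15.9 at P7. These values carry no interval and rest partly on few P1 UMIs, such as 5 of Dlx5 in I5 (3.64 CPM, 1.18 to 8.49). What makeup and levels each contributed was not tested. The matching of cells by the integration enters these values.

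**Figure D4:**
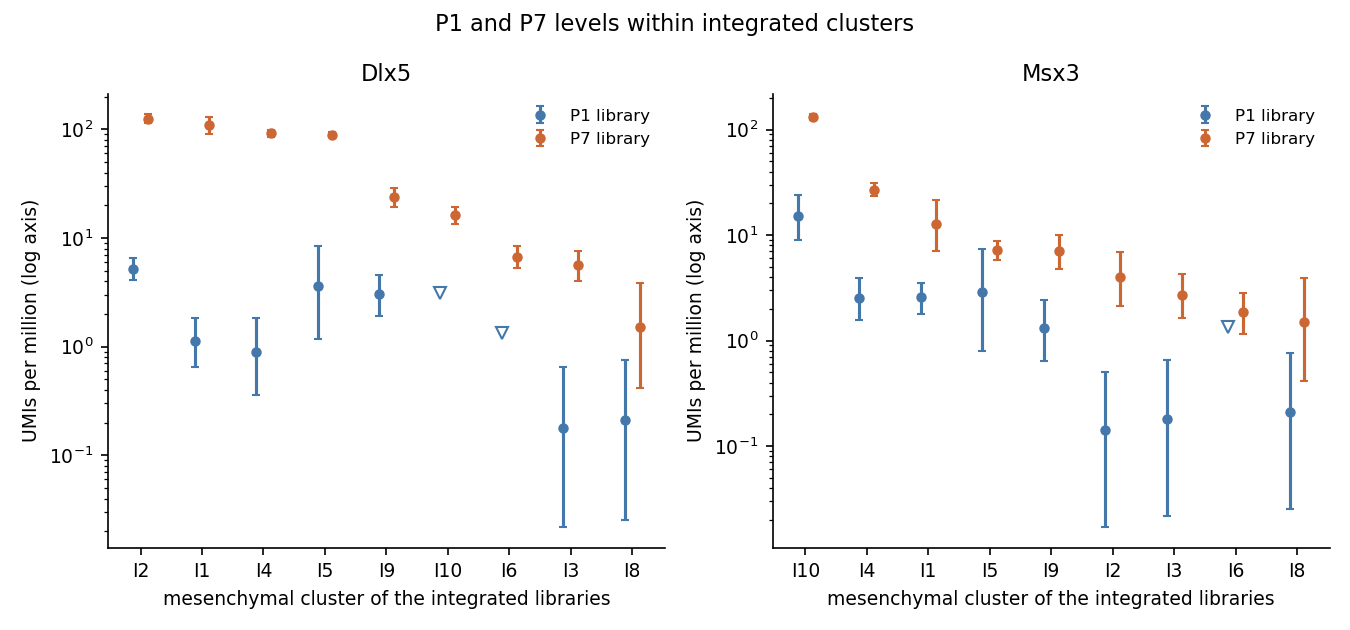
Dlx5 (left) and Msx3 (right) in CPM (log axis) at P1 (blue) and P7 (orange) within mesenchymal clusters of the integrated libraries, sorted by the P7 level; bars are exact 95% counting intervals, and an open triangle marks the upper limit where no UMI was seen. Dlx5 is higher at P7 in each cluster shown, up to 125 in I2, but I8 rests on 2 and 4 UMIs. The P7 levels of I3 and I6 lie inside the macrophage interval. Msx3 is highest in I10 at both ages, 15.1 and 131.

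Cells with both Dlx5 and Msx3 were fewer than their shares would give. In the P7 cells thinned to 2000 UMIs, 530 had a Dlx5 UMI, 242 had an Msx3 UMI and 0 had both, where 7.58 were expected from the shares within each cluster and 10.8 from the shares over all cells. The upper limit of observed over expected was 0.487. With all UMIs kept, 1242 and 704 cells had one of the genes and 19 had both, against 48.8 expected within clusters, a ratio of 0.389 (0.234 to 0.608). The 19 cells had a median of 16054 UMIs and 26.3% were called doublets, against 7602 UMIs and 7.69% for cells with Dlx5 alone.

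By cluster the counts were small, and differences between clusters were not tested. In C12, 5 cells had both genes against 16.4 expected, and in C7 3 against 13.2, both beyond counting error. In C5 8 cells had both against 9.67 expected and in C15 2 against 6.21, neither beyond counting error, and both C15 cells were called doublets. At P1, 116 cells had Dlx5 and 89 had Msx3, and 0 had both against 0.728 expected, too few to read. For Msx2 and Msx3 at P7, 11 cells had both with all UMIs kept against 5.44 expected (ratio 2.02, lower limit 1.01), from 36 Msx2 cells, and 1 against 0.228 after thinning. At P1 2 cells had Msx2 with Msx3 against 0.161 expected, and 2 had Msx1 with Msx2 against 0.0335.

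**Figure D5:**
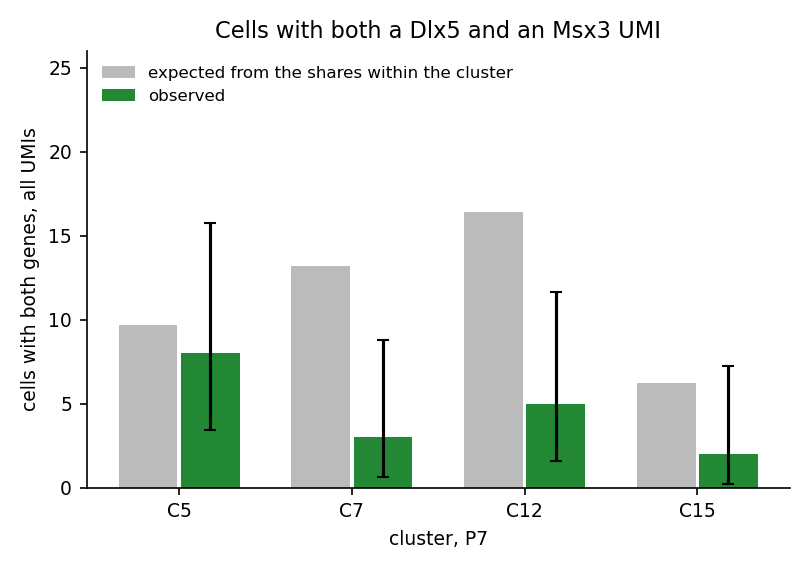
Number of P7 cells with both a Dlx5 and an Msx3 UMI, all UMIs kept, in the 4 clusters where most were expected: expected from the shares of each gene within the cluster (grey) and observed (green, with exact 95% Poisson intervals). Observed counts were 8, 3, 5 and 2 in C5, C7, C12 and C15, against 9.67, 13.2, 16.4 and 6.21.

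The genes whose levels ran most like Dlx5 over 34 groups (each cluster of at least 50 cells in each library, among 11529 genes) were Phex (Pearson r = 0.88), Myoc (0.83), Ankrd35 (0.82), Sfrp4 (0.82) and Steap4 (0.81). Phex is the endopeptidase mutated in X-linked hypophosphataemia, and Sfrp4 a secreted Wnt antagonist. Of the 5, 4 were highest in C5 at P7 and Ankrd35 in C7. For Msx3 they were Dapl1 (0.90), Car14 (0.89), Armc4 (0.86), Ppp1r1b (0.85) and Slc13a5 (0.85). Car14 is a membrane carbonic anhydrase, Ppp1r1b encodes DARPP-32 and Slc13a5 a citrate transporter. Of these, 4 were highest in C12 at P7 and Dapl1 in C8. The r of Dlx5 with Msx3 over the same groups was 0.32, of Dlx5 with Msx1 0.11, and of Msx3 with Msx2 0.20. The points share libraries and are unequal in depth, so these are descriptions.

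Mesenchymal cells with a Dlx5 UMI differed from those without in bone genes at both ages. Of 9486 genes with at least 200 UMIs in each library, 0.411% were at least 2-fold higher (on CPM + 5) in cells with Dlx5 in both libraries (2.08% at P1 and 0.654% at P7), and 4 of the 5 osteoblast genes that passed were among them. Runx2, the master regulator of osteoblasts, stood at 57.8 against 4.22 CPM at P1 and 61.4 against 7.18 CPM at P7. Alpl, the alkaline phosphatase of mineralising tissue, stood at 138 against 5.29 CPM and at 72.0 against 9.42 CPM. Ibsp, bone sialoprotein, stood at 91.3 against 18.6 CPM and at 84.5 against 10.9 CPM, and Spp1, osteopontin, at 720 against 299 CPM and at 592 against 179 CPM.

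The rest of the osteoblast list did not follow. Dmp1, a gene of bone matrix cells, had 9.13 against 8.17 CPM at P1 and 121 against 95.7 CPM at P7. The osteoblast genes Sp7 and Bglap did not reach 200 UMIs and lay at or below 1.22 CPM in cells with and without Dlx5 at both ages. Summed over the 8 genes, the osteoblast level was 1027 against 337 CPM at P1 and 937 against 304 CPM at P7. These counts come from 105 cells with Dlx5 at P1 and 1094 at P7.

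By the size of the difference in both libraries, the 5 leading genes in cells with Dlx5 were Gdf10, Runx2, Alpl, Ibsp and Fmo1. Gdf10, a BMP family ligand, stood at 420 against 30.7 CPM at P1 and 291 against 38.4 CPM at P7. At the other end were Aldh1a2, the retinoic acid synthesising enzyme, Dpp4, Cavin2 and both rows of the alpha globin Hba-a2. Aldh1a2 had 21.3 against 150 CPM at P1. At P1 the summed erythroid list was 69.0 CPM in cells with Dlx5 and 618 CPM in cells without. At P7 it was 362 and 1615 CPM, and all 5 rows were lower at both ages. Of these rows 3 passed, and all 3 were at least 2-fold lower in both libraries, beside 0.685% of all genes tested. Whether haemoglobin RNA bears on the detection of Dlx5 was not tested. Dividing markers were higher with Dlx5 at P1 (969 against 392 CPM) and about equal at P7 (330.3 against 319.9 CPM). Of the endothelial list 1 of 5 genes that passed was at least 2-fold higher in both libraries (Kdr), while its summed level was lower with Dlx5, 210.01 against 463.28 CPM at P1 and 339 against 625 CPM at P7.

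Of the BMP pathway lists, single genes differed with Dlx5, to be read beside the 0.411% of all genes. Of BMP ligands, 1 of 5 that passed was at least 2-fold higher in both libraries (Gdf10), and of BMP antagonists 1 of 4 (Fst, follistatin, 71.0 against 11.7 CPM at P1 and 23.5 against 7.97 CPM at P7). Of the BMP receptors and Smads, and of the Id genes and other BMP targets, none was. Id2 came closest, with 164 against 82.5 CPM at P1 and 159 against 54.5 CPM at P7. Among the skeletal and craniofacial regulators 2 of 8 were, Runx2 and Foxc2, a forkhead factor of the developing skull (63.9 against 22.1 CPM and 72.6 against 28.8 CPM). Of the neighbours of the locus 1 of 5 was, Dync1i1, a dynein chain gene (28.4 against 8.45 CPM and 38.8 against 9.20 CPM).

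Within C5 and C7 taken singly, the P7 cells with Dlx5 again had more of the same bone genes. This comparison, and that of Msx3 in C12, was chosen after the cluster values were seen. In C5 the 536 cells with Dlx5 had Alpl at 57.6 against 8.46 CPM, the neuropeptide gene Adcyap1 at 39.4 against 3.34 CPM and Coch, cochlin of the spiral ligament and limbus, at 160 against 28.7 CPM. Of the 5 osteoblast genes that passed 3 were at least 2-fold higher, Runx2, Ibsp and Alpl, beside 0.39% of the genes tested. All 5 were higher by some amount, beside 52.3% of the genes tested. All 8 listed were higher too, but those that did not pass had too few UMIs to be set beside that share. In C7 the 402 cells with Dlx5 had Spp1 at 344 against 64.4 CPM, Coch at 567 against 150 CPM and Alpl at 97.4 against 28.6 CPM. There 2 of the 3 osteoblast genes that passed were at least 2-fold higher, beside 0.501% of the genes tested. All 3 were higher by some amount, beside 55% of the genes tested. All 8 listed were again higher, with the same limit. Median depth was 8006 against 7027 UMIs in C5 and 6560.5 against 6433 UMIs in C7. The erythroid sum was lower with Dlx5 in both, 253 against 1766 CPM in C5 and 687 against 1707 CPM in C7. In each cluster 5 of 5 rows were lower. Of 3 globin rows that passed, 3 were at least 2-fold lower in each cluster. Of the genes tested, 0.195% in C5 and 0.501% in C7 were at least 2-fold lower, and 47.7% and 45% were lower by some amount.

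Mesenchymal cells with an Msx3 UMI stood on the other side for several of these genes. In both libraries 0.548% of genes were at least 2-fold higher with Msx3 (0.759% at P1 and 1.48% at P7) and 1.77% at least 2-fold lower. The leading 5 were Car3, Cytl1, Cpxm2, Gcg and Mt2A, picked by the rule used for Dlx5 but after the values were known. Car3, a carbonic anhydrase, stood at 186 against 8.70 CPM at P1, and Cytl1, a cytokine-like factor of cartilage and the neighbour of Msx1 on chromosome 14, at 368 against 61.4 CPM. Lower were Dcn, Lum, Spp1, Gpc3 and Col8a1, and of the osteoblast genes 3 of 5 were lower in both libraries (Ibsp, Spp1, Dmp1). All 5 genes of the Gpc3-Dcn state list were lower, a list the study chose on these samples. Gdf10 was at 12.1 against 36.5 CPM at P1 and 15.04 against 84.99 CPM at P7, and Cnmd, chondromodulin of cartilage, at 380 against 119 CPM and 1578 against 222 CPM. The summed hair cell list was 24.16 against 11.96 CPM at P1 and 46.8 against 5.18 CPM at P7, nearly all of it Pvalb, a calcium-binding protein gene also used by other cells (24.2 against 11.9 CPM and 46.6 against 5.08 CPM), with Pou4f3 and Gfi1 at 0 at P7. The dividing list was 125 against 346 CPM at P7.

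Inside C12 haemoglobin divided the cells with and without Msx3. The 482 cells with Msx3 had a summed erythroid level of 2291 CPM and the 371 without had 217 CPM, higher in 5 of 5 rows. Of these rows 3 passed, and all 3 were at least 2-fold higher. Of all 4684 genes tested, 53.7% were higher by any amount and 0.149% at least 2-fold. Hba-a2 was at 1415 against 96.2 CPM in one of its rows. In the other direction Otos, otospiralin of cochlear fibrocytes, was at 992 against 4303 CPM, Coch at 50.8 against 221 CPM and the lipid transfer protein gene Pltp at 23.0 against 114 CPM, where 0.342% of genes were at least 2-fold lower and 46.3% lower by some amount. The endothelial list was higher in 6 of 6 genes (648 against 443 CPM), Scrublet called 1.27% of the C12 cells doublets, and median depth was 9847 against 8432 UMIs. The part of haemoglobin RNA in this contrast was not tested. Over all mesenchymal cells the erythroid sum was lower with Msx3 at P1 (32.9 against 617 CPM) and higher at P7 (1941 against 1357 CPM).

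Set beside the mesenchymal cells of P7 outside C5, C7 and C12, the clusters that held Dlx5 and Msx3 differed in the same lists. In C5 4 of 5 osteoblast genes were at least 2-fold higher (Runx2, Ibsp, Alpl, Spp1), beside 1.86% of all genes higher and 3.84% lower. In C7 2 of 5 were higher (Runx2 and Alpl) and 1 was at least 2-fold lower (Dmp1, 34.4 against 122 CPM), beside 1.81% and 4.58%. In C12 none was higher and 2 of 5 were lower (2.72% of all genes higher, 6.4% lower). Runx2 had 37.8 CPM in C5, 21.4 CPM in C7 and 2.44 CPM in C12, against 7.13 CPM in the other mesenchymal cells. All 3 chondrocyte genes that passed were higher in C12, 2 of 4 in C5 and 2 of 3 in C7. The 4 genes of the Aldh1a2-Scara3 state list, also chosen on these samples, were lower in C5 and C7 and 3 of 4 were lower in C12. All 6 dividing markers were at least 2-fold lower in each of the 3 clusters. The reference cells include C9, which the Aldh1a2-Scara3 list leads, and the dividing mesenchyme of C10. Clusters without those traits come out lower by this choice, so neither result is read as particular to C5, C7 or C12.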

How the data were processed

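The deposited matrices hold UMI counts per gene and barcode, made by the authors with Cell Ranger 3.1.0 against rn6; no normalization was applied to the deposited counts. The submitters' notes also name Seurat 3.1.1. All 32623 rows of each library were read. Following the study's methods, barcodes stayed in with more than 500 but fewer than 5000 genes, a minimum of 500 UMIs and a mitochondrial share below 25%. Seurat 5.3.0 (R 4.3.3) clustered the merged libraries (10 principal components, 20 neighbours, resolution 0.8), and its CCA integration gave a second clustering. The genes described and all listed marker genes were left out, so 1886 of 2000 variable genes were used.

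Members and lists were chosen with earlier results of these data known. A cluster was named by the marker list with the highest mean log2 ratio, of at least 1 and with 3 or more markers in 10% of cells, and clusters with 4 of 6 general mesenchyme markers and no leading list were taken as mesenchymal. That scoring rule was settled after the clusters were seen, as were the contrast for Msx3 and those within clusters. One cluster stayed unnamed. The state lists named by gene pairs come from these samples.

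Levels are CPM of summed counts with exact Poisson intervals, shares have exact Clopper-Pearson intervals, and ratios have intervals from the binomial split of the counts (Python 3.11.15, scipy 1.17.1), at 95%. A count of 0 is given with a limit of 3 counts. Co-detection was set against the sum over clusters of the product of shares. Doublets were called by Scrublet (scanpy 1.11.5; 4.87% of P1 and 6.16% of P7 cells) and kept. Genes named beyond the listed ones were the 5 most correlated with Dlx5 and Msx3 on log2(CPM + 5), among genes with at least 10 CPM in 1 group, and the 5 highest and lowest between mesenchymal cells with and without Dlx5 (200 UMIs or more in each library). Listed genes named singly because they passed a fold were picked after their values were seen. Globin rows are near-identical copies and may share reads. The scripts were tested on simulated data. Results for some listed genes are not reported here.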

Additional observations from a re-analysis of the deposited data

Results flagged for a closer look

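Dlx5 and Msx3 were also found in barcodes that the limits on cells left out. The 86 P7 barcodes with 5000 or more genes gave 15.5 CPM of Dlx5 (11.4 to 20.6, 47 UMIs) and 5.61 CPM of Msx3 (3.27 to 8.98, 17 UMIs), both above the level that 3 counts would give there, 0.990 CPM. The 384 such barcodes at P1 gave 0.699 CPM of Dlx5 and 0.140 CPM of Msx3. P7 barcodes with 25% or more mitochondrial UMIs gave 7.94 CPM of Dlx5 from 27 UMIs, and those with 500 or fewer genes 1.89 CPM from 6 UMIs, so the excluded barcodes were below the 33.1 CPM of the kept P7 cells.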

How the results depend on the processing

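Of 65 alternative values, 62 kept their direction and stayed within the counting interval of the reported value, and none reversed. The 3 others came from removing Scrublet doublets, which raised the mesenchymal share of Dlx5 UMIs at P7 to 95.8%, of Msx3 UMIs at P1 to 100% and of Msx3 UMIs at P7 to 96.3%; the clusters with many called doublets lie outside the mesenchyme. The log2 ratio of Dlx5 ran from 4.42 (median ratio scaling) to 4.70 (mesenchymal clusters only), and that of Msx3 from 3.91 to 4.12. Msx1 ran from 0.37 to 0.68 and Msx2 from 0.60 to 1.02. The observed over expected number of cells with Dlx5 and Msx3 at P7 was 0.243 when thinned to 4000 UMIs and 0.389 without thinning, and 0 within integrated clusters, at resolution 1.2, without doublets and, in alternatives added after seeing the data, without C15 and in mesenchymal clusters only. The highest P7 level was 125 CPM for Dlx5 and 131 CPM for Msx3 in integrated clusters. No paired analysis was possible because each age was 1 library. Counting limits Msx1 and Msx2, with at most 40 UMIs per library, most.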
